A study of Mus musculus with 42 samples.

Results

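Interferon-inducible GTPases were followed through the transcriptome of bone-marrow-derived macrophages (BMDM) treated with bacterial lipopolysaccharide (LPS) or palmitate. The family was taken as 10 listed genes, in 2 groups. The guanylate-binding proteins were Gbp2, Gbp3, Gbp5, Gbp7 and Gbp9. The immunity-related GTPases were Irgm1, Irgm2, Igtp, Iigp1 and Tgtp2. The genes were listed with earlier results of these data known. The rule then matched gene identifiers of the count table to these symbols, a step that used no measured value. It found 9 of the 10 among 37310 genes. Gbp5 was not matched to a row and is not analysed here. Each of the 9 passed the filter on low counts, which kept 11624 genes for testing.

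These proteins are among the most inducible products of the interferon response. Guanylate-binding proteins are large GTPases that assemble on the membranes of vacuoles holding pathogens and on bacteria themselves. Immunity-related GTPases are smaller, and in the mouse they divide into effectors that load onto pathogen vacuoles (Iigp1, also called Irga6, and Tgtp2, also called Irgb6) and regulators that sit on the cell's own membranes and hold the effectors inactive there (Irgm1, Irgm2 and Igtp, also called Irgm3). Macrophages make interferon beta when LPS engages TLR4, and the interferon then acts back on the same culture through its receptor, JAK kinases and the transcription factors they activate.

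The cells came from male mice, 7 to 10 weeks old by the study's methods, labelled WT or KO for Irf5, a transcription factor downstream of Toll-like receptors. In the KO mice, floxed Irf5 alleles were combined with LysM-Cre, a Cre recombinase driven from the Lyz2 locus and so active in myeloid cells. Marrow cells of both genotypes were differentiated into BMDM in medium conditioned by L929 cells and then left as Control (0, 2 or 24 h), or treated with palmitate (2 or 24 h) or LPS (2 or 24 h). Each of the 14 groups held 3 libraries, 42 in all, and no label or column says that these came from separate mice or cultures, so p-values measure the spread between libraries, which may be technical.

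Most of the family lies in clusters of the mouse genome (GRCm38, positions from GENCODE). On chromosome 3, on the plus strand, lie Gbp7 (142530342 to 142550149), Gbp3 (142560026 to 142573209) and Gbp2 (142620602 to 142638008), with Gbp9 apart on chromosome 5 (105077630 to 105139539, minus strand). On chromosome 11 lie Irgm1 (48861968 to 48871683, minus), Tgtp2 (49057194 to 49064206, minus), Igtp (58199556 to 58207591, plus) and Irgm2 (58199618 to 58222782, plus). Iigp1 lies on chromosome 18 (60376027 to 60392634, plus). Igtp and Irgm2 overlap on one strand, and the exon bases shared with other annotated genes make up 8.01% of Igtp, 4.39% of Irgm2 and 11.3% of Gbp7. Close copies also limit what some counts mean. Of all 100-base windows of the Tgtp2 transcript, 80.4% are found in Tgtp1 or Gm12185 as well, so the Tgtp2 counts are uncertain between these copies. The share was 10.2% for Gbp7, 5.67% for Igtp, 2.48% for Irgm2, 2.01% for Gbp9 and 0.929% for Gbp3, and 0 for Gbp2, Irgm1 and Iigp1.

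Library totals ran from 2848793 to 7743442 counts. Levels are CPM (counts-per-million) on library sizes scaled by the trimmed mean of M values (TMM), on which 3 counts stood for 0.3965 to 1.14 CPM, and a gene was called when its adjusted p in edgeR's quasi-likelihood test was under 0.05. The Irf5 transcript was not lower in libraries labelled KO. It had 356 CPM in those treated with LPS for 24 h against 257 CPM in the libraries labelled WT, a log2 fold change of 0.47 (adjusted p = 1.55e-07), and the position of its reads relative to the floxed exons was not analysed here. Lyz2 was lower in KO-labelled libraries in all 7 conditions. Macrophage markers (Adgre1, Csf1r, Cd68, Itgam, Mertk and Fcgr1) summed to between 4704 and 8739 CPM in every library, while the 8 markers of T and NK cells summed to at most 2.81 CPM and Ifng, the gene of interferon gamma, had 5 counts in all 42 libraries together.

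In the genes with a matched promoter, the sequences just before the start sites carry the letters read by interferon-activated factors, and they are shown as a description. RefSeq promoters (GRCm38.p6) were matched for 8 of the 10 genes, Gbp5 included, and the 250 bases before each start site were searched on both strands. No promoter was matched for Gbp9 or Iigp1. Gbp9 followed the mean profile of the 9 least closely (r = 0.799, below) and Gbp5 has no measured level, so the matches were not set against the levels. The interferon-stimulated response element (ISRE) was written as GAAANNGAAA and the gamma-activated site (GAS), an element of interferon-gamma-responsive promoters, as TTCNNNGAA. The ISRE letters occurred in all 8 genes and in 2.98% of 32851 promoter windows of the same length. The GAS letters occurred in 5 of the 8 (Gbp5, Gbp7, Tgtp2, Igtp and Irgm2) and in 7.02% of windows, and both occurred together in those 5 genes and in 0.332% of windows. These genes are relatives and not independent draws. In 3 immunity-related GTPases the elements share one layout, a GAS, then 2 bases, then an ISRE. They are printed 5′ to 3′ on the strand of the gene, with the matched letters in capitals, from chr11:58199491-58199551 (Igtp, plus strand), chr11:58214882-58214942 (Irgm2, plus) and chr11:49064253-49064313 (Tgtp2, minus).
Igtp: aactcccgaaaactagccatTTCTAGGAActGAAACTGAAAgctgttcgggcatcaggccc
Irgm2: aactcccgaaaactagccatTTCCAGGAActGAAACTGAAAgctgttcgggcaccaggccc
Tgtp2: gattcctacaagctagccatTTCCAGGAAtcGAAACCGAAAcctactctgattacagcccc
Igtp and Irgm2 differ at 2 of these 61 bases, Tgtp2 and Igtp at 19, and Tgtp2 and Irgm2 at 18. The ISRE begins 34 bases before the RefSeq start site in Igtp, 64 in Irgm2 and 70 in Tgtp2.

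The other matches had other layouts. Gbp7 held 2 GAS matches upstream of an ISRE match (chr3:142530210-142530312, plus), Gbp3 and Irgm1 held 2 overlapping ISRE matches, and Gbp2 held 1 ISRE match. Gbp3 is shown from chr3:142559992-142560021 (plus), Gbp2 from chr3:142620594-142620623 (plus) and Irgm1 from chr11:48871428-48871457 (minus). GENCODE starts Gbp2 and Irgm1 further upstream than RefSeq, so that 22 of the 30 Gbp2 bases and all 30 Irgm1 bases shown lie in an exon of that annotation. It also starts Gbp5 and Irgm2 upstream of the windows searched. Irgm2 starts at 58199618 in GENCODE, against a window of 58214727 to 58214976, and its shown bases lie in no annotated exon.
Gbp7: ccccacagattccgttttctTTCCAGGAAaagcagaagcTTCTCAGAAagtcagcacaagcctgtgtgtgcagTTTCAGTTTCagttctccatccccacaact
Gbp3: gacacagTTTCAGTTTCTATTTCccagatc
Gbp2: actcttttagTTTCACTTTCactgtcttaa
Irgm1: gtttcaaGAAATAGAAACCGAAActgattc
A match is a run of letters in this window and not a measured binding site.

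LPS raised all 9 measured genes, which had been listed with earlier results of these data known. After 24 h, all 9 genes were called higher than Control in the libraries labelled WT (19.6% of all tested genes were called higher) and in those labelled KO (19.9%), with a median log2 fold change of 3.83 and 4.08. The median over all tested genes in the WT comparison was -0.01. After 2 h, 8 of the 9 were called higher in both (14% and 14.7% of all tested genes), with a median of 2.58 and 2.98, and Gbp9 was the exception. In no LPS 24 h library did any of the 9 fall within the range of the 30 libraries without LPS. Against Control at 24 h alone, 24.3% (WT) and 24.8% (KO) of all tested genes were higher without overlap. The measurements are bulk RNA, in which fewer cells of a type and less RNA per cell cannot be told apart.

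**Figure D1:**
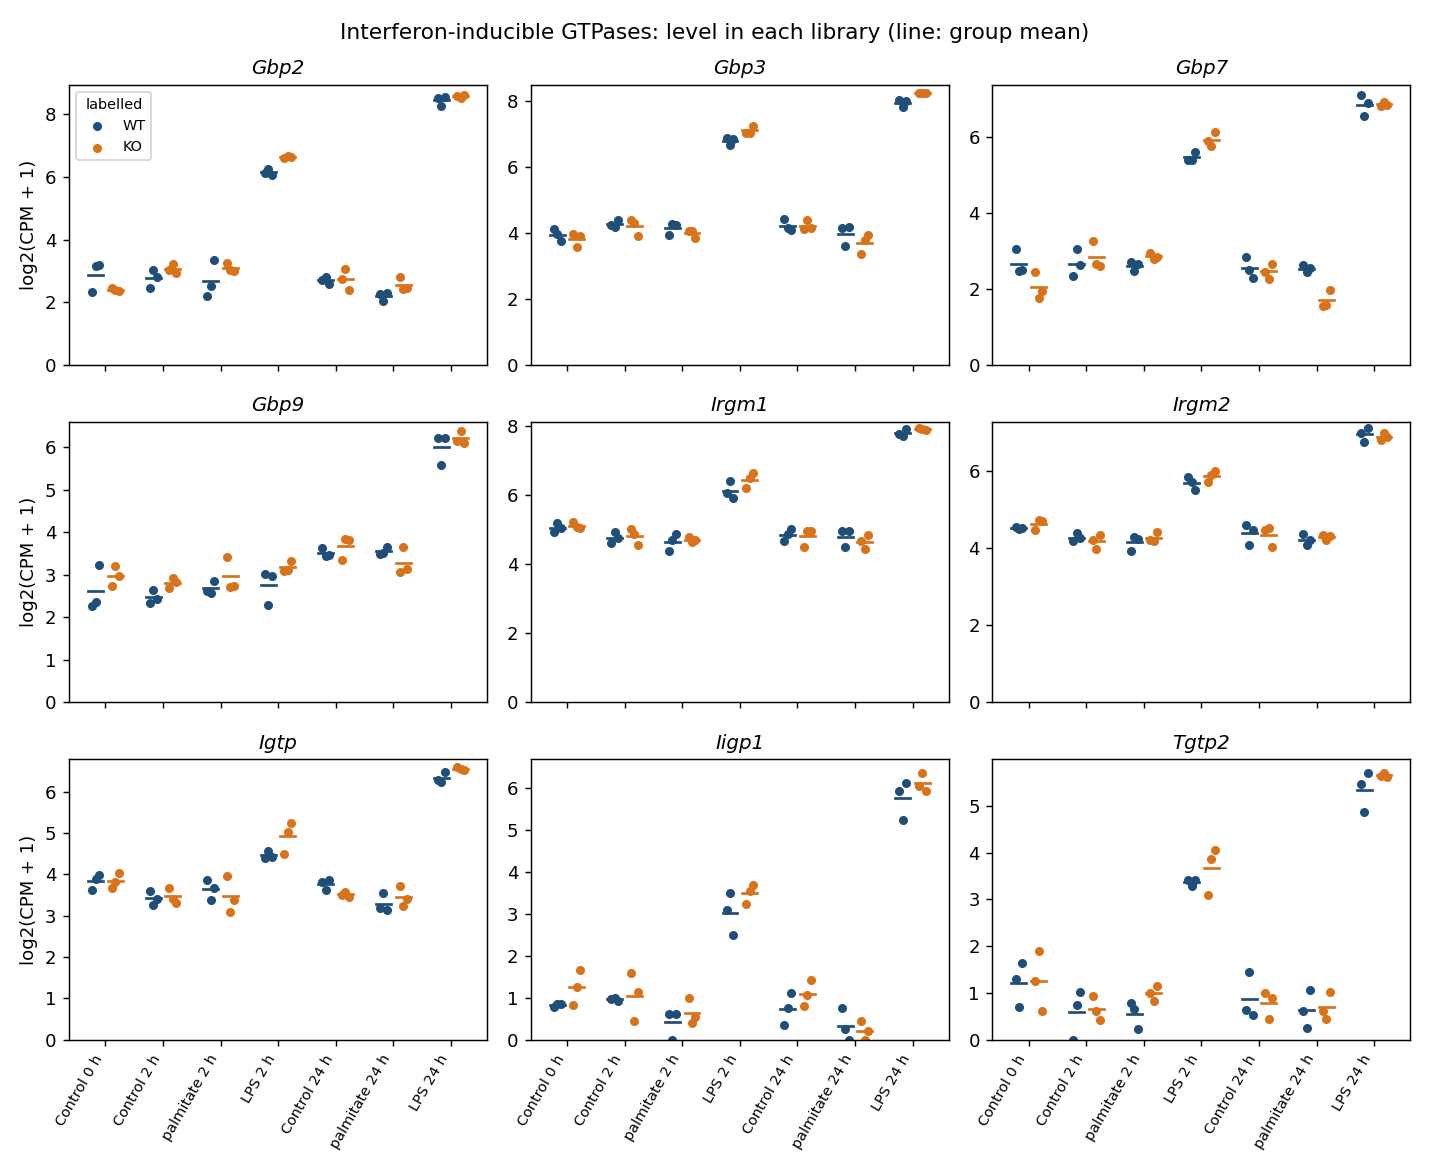
Level of each of the 9 GTPases in every library, as log2(CPM + 1) on the vertical axis, with a panel per gene, a column per condition, a point per library (blue, labelled WT; orange, labelled KO) and a line at the mean of the 3 points. LPS 24 h stands above every other condition in each panel, and Gbp9 at LPS 2 h stays among the libraries without LPS (3.80 to 13.5 CPM).

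Gbp2, a prenylated guanylate-binding protein that reaches pathogen vacuoles and bacterial surfaces, had the highest level per kilobase of the 9 after 24 h of LPS. In libraries labelled WT it had 5.61, 5.99 and 4.95 CPM in Control at 24 h and 364, 301 and 370 CPM after 24 h of LPS. Library 2 was the lowest of the LPS group, and no library came near the Control range. The fold was 62.8 (log2 fold change 5.97 ± 0.15 SE, n = 3 and 3, edgeR adjusted p = 1.11e-34). At 2 h the same labels gave 4.45, 7.11 and 6.07 CPM in Control and 68.6, 75.0 and 66.2 CPM with LPS, an 11.7-fold difference (adjusted p = 2.30e-24). The rise was thus under way at 2 h and went on afterwards. In libraries labelled KO, Gbp2 had 95.1, 99.8 and 97.6 CPM after 2 h and 382, 359 and 386 CPM after 24 h of LPS.

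Gbp3, a close relative of Gbp7, had a smaller fold change. Control libraries labelled WT held 20.7, 16.8 and 16.2 CPM at 24 h, and LPS libraries held 262, 228 and 260.0 CPM. That was a 14.2-fold difference (log2 fold change 3.83 ± 0.12 SE, adjusted p = 4.46e-31). At 2 h the LPS libraries already held 119, 101 and 115 CPM against 17.98, 17.4 and 20.3 CPM in Control. The 3 KO-labelled libraries at LPS 24 h, with 305, 303 and 302 CPM, lay close together and all above the WT-labelled ones. In that comparison 7.03% of all tested genes were higher in KO-labelled libraries without overlap, and Gbp3 was not called.

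Gbp7, which has been tied to the assembly of the phagocyte NADPH oxidase, was scarce without LPS. In WT-labelled Control libraries at 24 h it had 6.17, 4.62 and 3.93 CPM, and with LPS 135, 92.9 and 118 CPM, a 24.4-fold difference (log2 fold change 4.61 ± 0.18 SE, adjusted p = 2.36e-27). After 2 h of LPS it had 41.1, 41.3 and 47.9 CPM in WT-labelled and 58.8, 53.6 and 68.7 CPM in KO-labelled libraries. These sets do not overlap with each other or with any library without LPS, where the highest value was 8.68 CPM. At LPS 2 h, 7.0% of all tested genes were higher in KO-labelled libraries without overlap, and Gbp7 was not called between labels.

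Gbp9, the guanylate-binding protein encoded apart from the others on chromosome 5, followed another time course. WT-labelled libraries had 4.06, 5.29 and 4.44 CPM in Control at 2 h and 7.15, 3.90 and 6.86 CPM with LPS, and these overlap. The log2 fold change of 0.34 ± 0.29 SE was not called (adjusted p = 0.468), nor was that of 0.43 ± 0.27 SE in KO-labelled libraries (adjusted p = 0.270), where the LPS libraries lay above Control without overlap at 7.58 to 9.07 against 5.42 to 6.62 CPM. By 24 h it had 11.5, 9.93 and 10.0 CPM in Control and 73.5, 47.0 and 73.1 CPM with LPS. That 6.21-fold difference was called (adjusted p = 2.28e-16). Gbp9 was also the member that rose most in untreated culture, as described below, so its 24 h comparison starts from a higher Control.

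Irgm1, a regulator best known for its part in autophagy and in resistance to vacuolar pathogens, was raised by LPS at both times. WT-labelled Control libraries at 24 h had 24.1, 28.4 and 31.1 CPM, and those with LPS had 216, 208 and 239 CPM. The fold was 7.80 (log2 fold change 2.96 ± 0.12 SE, adjusted p = 5.97e-26). At 2 h, LPS libraries had 64.7, 82.5 and 58.6 CPM against 23.6, 29.1 and 25.8 CPM. Both time points thus separate fully from Control, as did 19.2% of all tested genes upward at 2 h and 24.3% at 24 h.

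Irgm2 and Igtp, the other regulators and neighbours on chromosome 11, were also called at both times. At 24 h Irgm2 went from 23.3, 15.8 and 21.2 CPM in WT-labelled Control libraries to 124, 106 and 136 CPM, which was 6.16-fold (log2 fold change 2.62 ± 0.12 SE, adjusted p = 7.54e-24). Igtp went from 13.2, 11.3 and 13.5 CPM to 76.6, 74.2 and 88.2 CPM, which was 6.29-fold (log2 fold change 2.65 ± 0.16 SE, adjusted p = 9.22e-20). In KO-labelled libraries at 24 h Igtp was 8.95-fold and Irgm2 6.13-fold higher, and differences between the genes were not tested. At 2 h in WT-labelled libraries Igtp had 20.01, 22.8 and 20.4 CPM with LPS against 11.2, 8.59 and 9.62 CPM in Control, 2.17-fold (adjusted p = 3.62e-06), the smallest called change of the family at that time and label. Irgm2 was 2.74-fold higher at 2 h (adjusted p = 5.63e-13).

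The effector GTPases Iigp1 and Tgtp2 were almost absent without LPS. Over the 30 libraries without it, Iigp1 had 0 to 12 counts and Tgtp2 0 to 16 counts per library. In WT-labelled libraries at 24 h, Iigp1 had 0.280, 0.685 and 1.16 CPM in Control (1, 4 and 8 counts) and 60.2, 37.04 and 69.1 CPM with LPS. Every LPS 24 h library thus held many times the Iigp1 count of any library without LPS, but the size of the fold rests on the few Control counts. It was fitted at 68.1 (log2 fold change 6.09 ± 0.35 SE, adjusted p = 1.62e-20). Tgtp2 had 0.561, 1.71 and 0.436 CPM in Control (2, 10 and 3 counts) and 43.1, 28.1 and 51.4 CPM with LPS, fitted at 43.3-fold (log2 fold change 5.44 ± 0.37 SE, adjusted p = 8.81e-18). The reads behind it may belong in part to Tgtp1. At 2 h of LPS, Iigp1 had 7.51, 10.3 and 4.64 CPM and Tgtp2 9.65, 8.83 and 9.65 CPM in WT-labelled libraries.

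**Figure D2:**
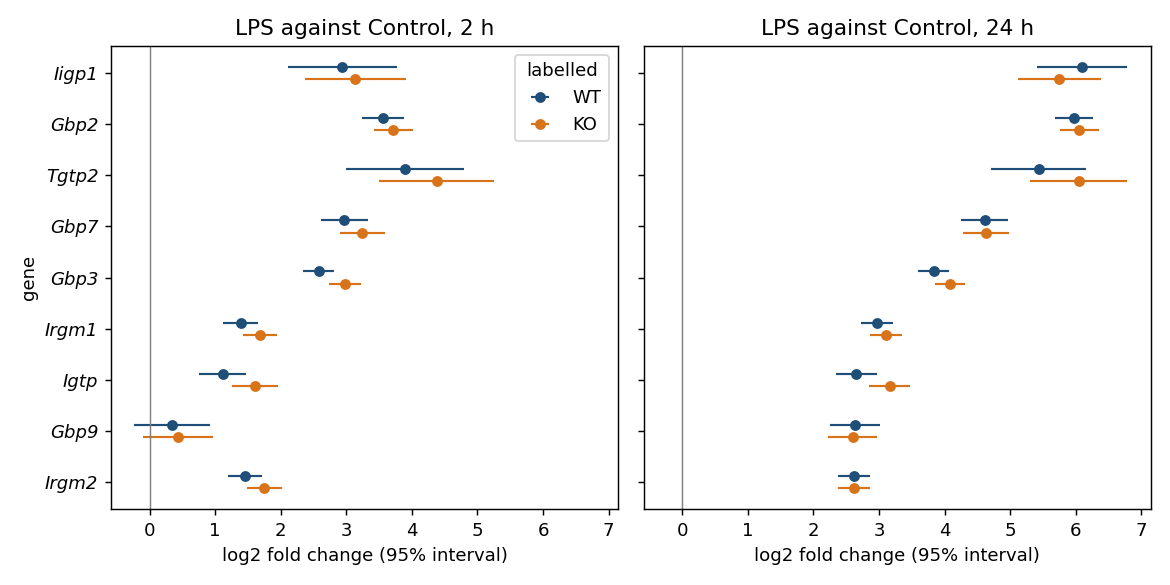
Log2 fold change of LPS against the Control of the same time and label (horizontal axis), with 95% intervals, for each of the 9 genes (rows) at 2 h and 24 h, blue for libraries labelled WT and orange for KO. At 24 h every interval lies above 0, from 2.62 (Irgm2) to 6.09 (Iigp1) in WT-labelled libraries, whereas the 2 h intervals of Gbp9 cross 0.

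In the WT-labelled LPS 24 h group, library 2 was the lowest of the 3 for all 9 genes and had the highest sum of granulocyte precursor markers (451 CPM). Without it the 9 calls were still made, as they were under every other alternative, where the log2 fold changes with this label at LPS 24 h ranged from 2.47 to 6.65. Markers of granulocyte precursors moved with LPS at 24 h. Their sum was 58.6 to 65.4 CPM in WT-labelled Control libraries and 338 to 451 CPM with LPS. Lcn2 made up most of that sum with a mean of 347 CPM, and the means of Ngp (13.2 to 5.66 CPM) and Ltf (16.8 to 3.69 CPM) were lower with LPS, as was that of S100a9 (15.1 to 5.98 CPM) and of Mpo (2.36 to 1.21 CPM). The means of S100a8 (9.39 to 14.3 CPM) and Camp (0.711 to 1.02 CPM) were higher, and Elane was at 0 in both groups. Their part in the GTPase levels was not tested.

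Levels of different genes were compared per kilobase of exon. The length was that of all annotated exons of a gene together. For Irgm1 it was 5810 bases against 2259 in its longest protein-coding transcript, and for Iigp1 5823 against 3121. For Gbp2 and Igtp the 2 lengths were equal. The order below therefore depends on the length used, and it was not worked out on transcript length. After 24 h of LPS in WT-labelled libraries, Gbp2 stood highest with 137 ± 15.2 CPM per kb (SD, n = 3), followed by Gbp3 with 76.5 ± 5.80. On this length the 3 regulators came next and did not separate beyond their spread. Igtp was at 39.4 ± 3.71, Irgm1 at 38.1 ± 2.7 and Irgm2 at 33.1 ± 4.01 CPM per kb. Gbp7 (20.6 ± 3.79), Tgtp2 (13.9 ± 4.01), Gbp9 (12.5 ± 2.94) and Iigp1 (9.52 ± 2.84 CPM per kb) closed the order, and the SD range of each met that of the next. Without LPS the order on this length was another one. In WT-labelled Control at 24 h, Igtp (6.27 ± 0.593), Gbp3 (5.48 ± 0.764), Irgm2 (5.44 ± 1.05) and Irgm1 (4.80 ± 0.610 CPM per kb) lay together at the top, and Gbp2 had 2.19 ± 0.210 CPM per kb.

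The LPS response grew between 2 h and 24 h. The difference between the responses, each taken against its own Control, was called for 8 of the 9 genes in WT-labelled libraries (14.5% of all tested genes were called higher) and for 8 in KO-labelled libraries (14.3%), with medians of 1.57 and 1.56 on the log2 scale. Iigp1 gained 3.15 ± 0.72 SE (adjusted p = 0.000465) and Gbp2 2.42 ± 0.27 SE (adjusted p = 3.24e-10) in WT-labelled libraries. Tgtp2 gained 1.54 ± 0.79 SE and was not called (adjusted p = 0.135). It was called without WT-labelled Control 2 h library 1 (2.02, adjusted p = 0.0398) or Control 24 h library 2 (2.46, adjusted p = 0.0363), on Control counts of 0 to 10 per library. In KO-labelled libraries Iigp1 lost its call without Control 2 h library 1 (2.04, adjusted p = 0.0501).

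The level at LPS 2 h relative to that at LPS 24 h differed across the family. Control was not subtracted, so the share also holds the level without LPS and does not measure the progress of the response. For Gbp9 the WT-labelled mean at 2 h was 5.97 CPM with LPS and 4.60 CPM in Control. In WT-labelled libraries, the mean level at LPS 2 h was 9.25% ± 2.04 (SE) of the level at 24 h for Gbp9, 13.5% ± 3.74 for Iigp1 and 20.3% ± 1.497 for Gbp2. These were the lowest shares. At the other end stood Gbp3 with 44.7% ± 2.91, Irgm2 with 41.5% ± 4.09 and Gbp7 with 37.6% ± 4.44. Tgtp2, Igtp and Irgm1 lay between them with 22.9%, 26.4% and 31.03%. In KO-labelled libraries the shares ran from 11.02% (Gbp9) to 52.5% (Gbp7), and differences between the labels in these shares were not tested as such.

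**Figure D3:**
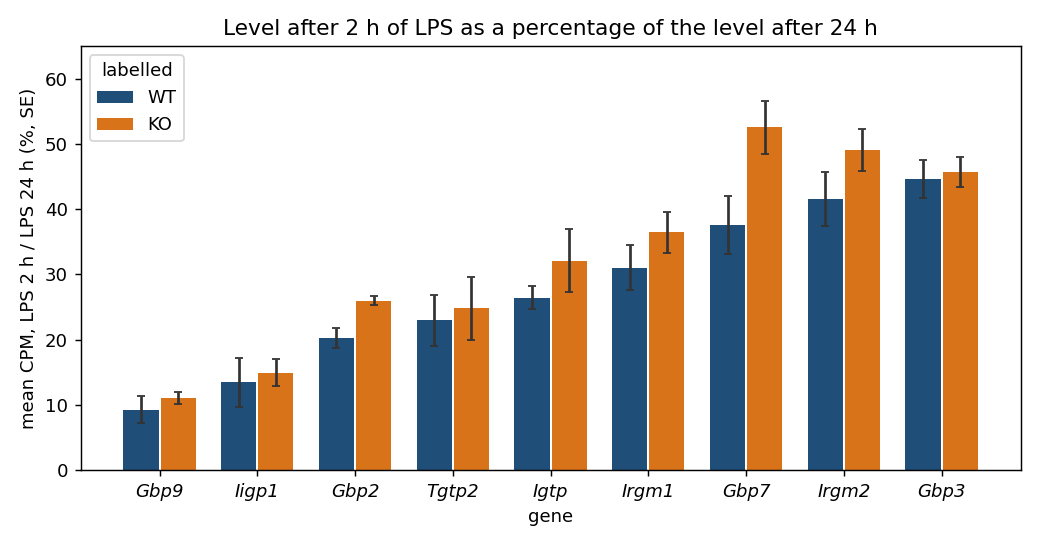
Mean CPM after 2 h of LPS as a percentage of the mean after 24 h (vertical axis, from 0) for each gene, blue for WT-labelled and orange for KO-labelled libraries, with bars of 1 SE propagated from the 3 libraries of both groups. Control was not subtracted, and the genes are ordered by the WT-labelled value, from 9.25% for Gbp9 to 44.7% for Gbp3.

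Across the 14 group means the 9 profiles ran closely together, as expression on the centred log2 scale. The median Pearson r over the 36 pairs was 0.971, the highest was 0.995 (Irgm2 and Tgtp2) and the lowest was 0.681 (Gbp7 and Gbp9). Against the mean profile of all 9, Gbp9 had an r of 0.799 and the other 8 between 0.974 and 0.995. The 14 points share 4 groups with LPS that dominate each value. The genes outside the list closest to the mean profile were Ccl5 (r = 0.991), Slfn3 (0.991), Ifit2 (0.990), Ggct (0.989) and Herc6 (0.989).

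The other interferon-inducible GTPases with a row included Gbp2b, Mx1, Ifi47 and Gm12250. Of 16 that were tested, 13 were called higher and none lower at LPS 24 h in WT-labelled libraries (19.6% of all tested genes were called higher and 19.9% lower), with a median log2 fold change of 3.39. At 2 h it was 6 higher and 2 lower (14% and 9.1% of all tested genes), with a median of 0.27, which is less than the median of 2.58 of the 9 genes. Gbp2b, a close relative of Gbp2 also known as Gbp1, went the other way. Its log2 fold change was 6.87 ± 0.18 SE at 2 h and 4.93 ± 0.24 SE at 24 h in WT-labelled libraries. The antiviral GTPase Mx1 was near its later level already, at 5.08 ± 0.25 SE and 5.68 ± 0.27 SE. The immunity-related GTPases Ifi47 (1.43 and 3.73), Gm12250 (2.52 and 3.84) and Gm5431 (0.37, not called, and 3.05) had their higher value at 24 h, as the 9 genes did.

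**Figure D4:**
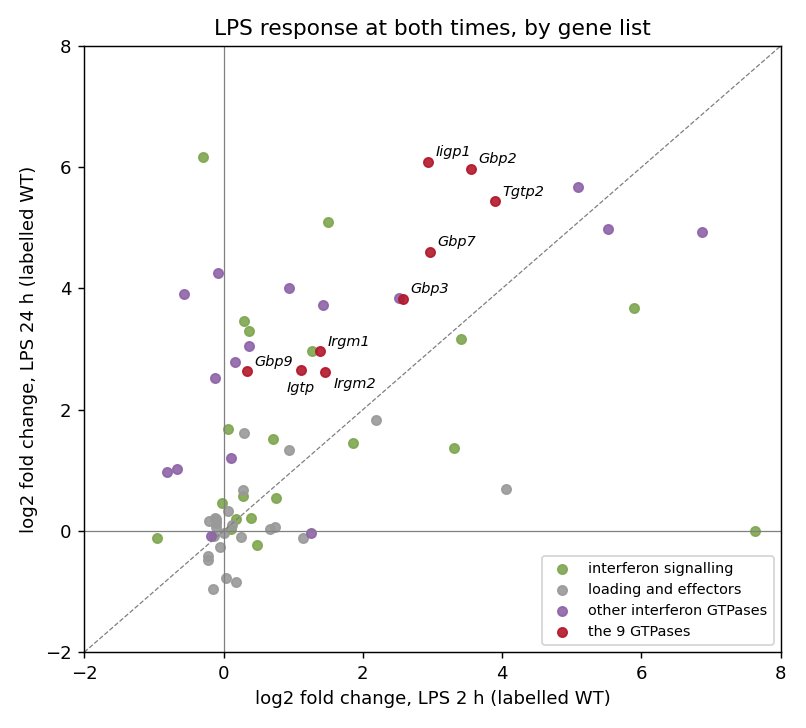
Log2 fold change at LPS 2 h (horizontal axis) against LPS 24 h (vertical axis) in WT-labelled libraries, a point per gene, with the 9 GTPases in red and named, other interferon-inducible GTPases in purple, interferon signalling genes in green and loading and effector genes in grey. All 9 red points lie above the dashed line of equal response, and the green point at the far right on the zero line is Ifnb1, drawn at 0 for 24 h because neither 24 h group had a count of it.

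Genes that carry the interferon signal were called higher at both times, 14 of 20 at 2 h and 15 of 20 at 24 h in WT-labelled libraries, with 1 called lower at each, where 14% and 19.6% of all tested genes were called higher. The ligand Ifnb1 was seen early. It had 19.3 to 31.8 CPM at LPS 2 h in WT-labelled libraries and 0 counts in each of the 3 LPS 24 h libraries with that label, where a count of 0 allows up to 3 counts, at most 0.513 CPM in these libraries. Irf1, a factor that binds ISRE-like letters, was called at both times with a log2 fold change of 3.31 ± 0.09 SE at 2 h and 1.36 ± 0.11 SE at 24 h. Irf7 was not called at 2 h and was 6.17 ± 0.22 SE higher at 24 h. Stat2 (3.30) and the feedback inhibitors Usp18 (5.10) and Socs3 (3.69) were also called at 24 h.

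The proteins that load GTPases onto vacuoles or act with them were called in both directions at 24 h. At LPS 24 h in WT-labelled libraries 7 of 25 were called higher and 5 lower, against shares of 19.6% and 19.9% of all tested genes, with a median log2 fold change of 0.07, and at 2 h it was 6 higher and 1 lower (14% and 9.1% of all tested genes). Gsdmd, the pore former of pyroptosis (log2 fold change 1.62), Casp4, the mouse sensor of cytosolic LPS (1.83), and the ubiquitin ligase Trim21 (1.34) were higher. Gabarapl1, one of the ATG8 proteins that direct GTPase loading, was 0.96 lower on the log2 scale and the galectin Lgals3 was 0.77 lower. The highest of these 25 genes at 24 h was Casp4, below the lowest of the 9 GTPases, Irgm2, at 2.62. At 2 h the inflammasome sensor Nlrp3, named after its value was seen, reached 4.06, above the highest of the 9, Tgtp2, at 3.89.

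Palmitate, a saturated fatty acid, gave no call in the family. None of the 9 was called by edgeR in any of the 4 comparisons, and few genes were called at all. The share called either way was 0.275% at 2 h and 0.852% at 24 h in WT-labelled libraries and 0.112% and 0.877% in KO-labelled libraries. At an unadjusted p under 0.05 the counts were 0 and 0 at 2 h, and 2 (WT) and 4 (KO) at 24 h. The share of all tested genes under that unadjusted p, or called by DESeq2, is not given, here or below, so these counts have no background to be read against. DESeq2 called 1 gene, Gbp3 in KO-labelled libraries at 24 h. There Gbp3 had 9.28, 13.02 and 14.5 CPM with palmitate and 16.6, 20.02 and 16.96 CPM in Control. These sets do not overlap, and 7.08% of all tested genes were lower without overlap in that comparison. The Gbp3 log2 fold change of -0.53 ± 0.16 SE had an edgeR adjusted p of 0.122. Gbp7 was at 1.962, 1.99 and 2.90 CPM against 4.46, 3.82 and 5.37 CPM (adjusted p = 0.130), and Iigp1 at 2, 0 and 1 counts against 3, 6 and 12 counts (adjusted p = 0.126). All 9 log2 fold changes in that comparison were below 0, from -2.76 to -0.03, and in WT-labelled libraries at 24 h 7 of 9 were below 0. Of 16 other interferon-inducible GTPases, 3 (KO) and 5 (WT) were above 0 at 24 h. The counts were 6 and 11 of 20 interferon signalling genes and 13 and 12 of 25 loading and effector genes. The medians over all tested genes were -0.00345 (KO) and -0.000749 (WT), and their shares below 0 were not worked out. The same Control libraries serve the LPS and the palmitate comparisons.

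Libraries labelled KO and WT were compared within each condition to ask whether the Irf5 label went with the level of these GTPases. A single call was made in 7 comparisons of 9 genes. Gbp2 at LPS 2 h had 68.6, 75.0 and 66.2 CPM in WT-labelled and 95.1, 99.8 and 97.6 CPM in KO-labelled libraries. All 3 KO-labelled values lay above all WT-labelled ones, with a log2 fold change of 0.48 ± 0.12 SE (1.40-fold, adjusted p = 0.0340). Of all tested genes, 0.465% were called either way in that comparison. The call was lost when only the 6 libraries compared were fitted (adjusted p = 0.0770) and when WT-labelled library 1, 2 or 3 or KO-labelled library 2 or 3 was left out (adjusted p 0.0512 to 0.167), and its log2 value stayed between 0.44 and 0.54 throughout.

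All 9 differences at LPS 2 h were above 0 on the log2 scale, the smallest in Irgm2 (0.20) and the greatest in Igtp (0.54). Of the 9, 5 had an unadjusted p under 0.05. Also above 0 were 14 of 16 other interferon-inducible GTPases, 16 of 20 interferon signalling genes and 14 of 25 loading and effector genes. The median over all tested genes was 0.00386, and their share above 0 was not worked out. Gbp2, Gbp3, Gbp7 and Gbp9 were higher in KO-labelled libraries without overlap, as were 7.0% of all tested genes. Igtp had 20.01, 22.8 and 20.4 CPM against 21.6, 31.6 and 36.9 CPM, which overlap (0.54 ± 0.17 SE, adjusted p = 0.147). KO-labelled library 1 was the shallowest of the series and the lowest of its group for 7 of the 9 genes, and Igtp was called without it (0.69, adjusted p = 0.0387). Ifnb1 went the other way in value, with 26.3 ± 6.38 CPM in WT-labelled and 17.3 ± 4.54 CPM in KO-labelled libraries at LPS 2 h (SD, n = 3), and was not called (adjusted p = 0.559). Granulocyte precursor markers moved with the label in that condition, at 50.1 to 76.6 CPM in WT-labelled and 136 to 241 CPM in KO-labelled libraries. They were also higher in KO-labelled libraries without overlap in every Control and palmitate condition. In Control at 24 h they had 58.6 to 65.4 CPM (WT) and 137 to 219 CPM (KO). At LPS 24 h the labels overlapped, with 338 to 451 and 331 to 399 CPM. Fibroblast markers at LPS 2 h summed to 0.371 to 0.715 CPM in WT-labelled libraries and to 0.758, 152 and 3.02 CPM in KO-labelled libraries 1, 2 and 3. Without library 2 the Gbp2 log2 value was 0.46. The part of these cells in the Gbp2 difference was not tested.

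**Figure D5:**
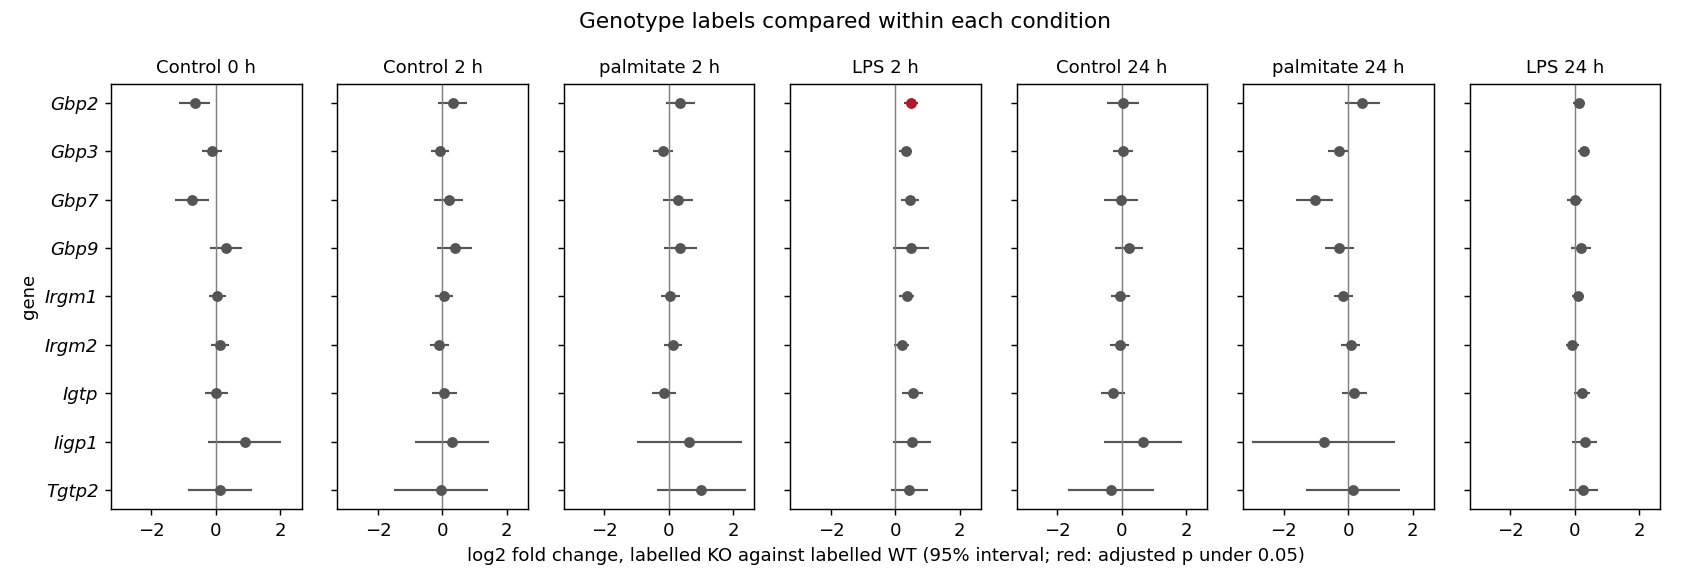
Log2 fold change of KO-labelled against WT-labelled libraries (horizontal axis) with 95% intervals for each of the 9 genes (rows) in the 7 conditions (panels), red where the adjusted p is under 0.05. The red point is Gbp2 at LPS 2 h (0.48), and at LPS 24 h the points lie between -0.07 and 0.31.

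No difference in the LPS response between labels was called. The interaction of label and LPS at 2 h was called for none of the 9 by edgeR or DESeq2 (0.0% of all tested genes were called by edgeR), with 1 at an unadjusted p under 0.05, and ranged from 0.09 to 0.49 on the log2 scale. For Gbp2 it was 0.17 with a 95% interval of -0.34 to 0.67, so a difference in response of the size of the call cannot be told from 0. At LPS 24 h, none of the 9 was called between labels (0.146% of all tested genes were), with 1 at an unadjusted p under 0.05 and 0 by DESeq2. Gbp2 differed by 0.12 with a 95% interval of -0.06 to 0.31. The 24 h interaction was called for none of the 9 (0.0086% of all tested genes), nor were the palmitate interactions (0.0% at both times), with 1, 0 and 1 at an unadjusted p under 0.05 and 0 by DESeq2.

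In the other conditions edgeR called none of the 9 between labels. The share of all tested genes called was 12.5% in Control at 0 h, 0.49% in Control at 2 h, 0.146% with palmitate at 2 h, 0.12% in Control at 24 h and 0.0688% with palmitate at 24 h. At an unadjusted p under 0.05 these gave 2, 0, 0, 0 and 1 of the 9. At 0 h, where the labels differed most widely over all genes, DESeq2 called 1 gene, Gbp2, with 3.98, 7.89 and 8.06 CPM in WT-labelled and 4.51, 4.28 and 4.13 CPM in KO-labelled libraries (log2 fold change -0.66 ± 0.25 SE, edgeR adjusted p = 0.0740). Gbp7 had 7.23, 4.57 and 4.63 CPM against 4.51, 2.39 and 2.88 CPM (-0.74 ± 0.27 SE, adjusted p = 0.0626). Gbp2 was called without WT-labelled library 1 (-0.89, adjusted p = 0.0159) and Gbp7 without KO-labelled library 1 (-1.03, adjusted p = 0.0321). Both were therefore lower in value in KO-labelled libraries at 0 h and higher after 2 h of LPS. Without LPS they were also higher in value in KO-labelled libraries at 2 h. Control means were 7.41 against 5.87 CPM for Gbp2 and 6.37 against 5.50 CPM for Gbp7. With palmitate they were 7.53 against 5.86 CPM and 6.25 against 5.14 CPM.

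Untreated culture moved the family by small amounts. Against Control at 0 h, with both labels averaged, 2 genes were called higher and 4 lower at 2 h (16.7% of all tested genes were called either way). Gbp3 (log2 fold change 0.39 ± 0.11 SE, adjusted p = 0.00892) and Gbp7 (0.51 ± 0.18 SE, adjusted p = 0.0407) rose. The regulators Irgm1 (-0.30), Irgm2 (-0.37) and Igtp (-0.44) fell, with adjusted p-values of 0.0295, 0.00640 and 0.0166. Tgtp2 fell by 1.30 on the log2 scale (adjusted p = 0.0321), on counts of 0 to 16 per library. The calls of Gbp3 and Irgm2 were made under every alternative, and the others each turned on single libraries. Gbp7 lost its call without WT-labelled 0 h library 2 or 3, KO-labelled 0 h library 2 or 3, WT-labelled 2 h library 2 or KO-labelled 2 h library 1 (adjusted p 0.0908 to 0.192). Of the 4 lower calls, 2 were left without WT-labelled 0 h library 3 or WT-labelled 2 h library 1 or 2, and 1 without KO-labelled 2 h library 3.

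At 24 h, Gbp3 (0.35 ± 0.11 SE, adjusted p = 0.0212) and Gbp9 (0.85 ± 0.17 SE, adjusted p = 0.000192) were called higher than at 0 h (16.5% of all tested genes were called either way). Gbp9 had 3.80, 4.10 and 8.33 CPM in WT-labelled and 5.69, 8.21 and 6.83 CPM in KO-labelled libraries at 0 h. At 24 h it had 11.5, 9.93 and 10.0 CPM and 9.17, 13.5 and 13.1 CPM. Gbp3 lost its call without WT-labelled 0 h library 3 or 24 h library 1, or KO-labelled 0 h library 2 or 24 h library 2 (adjusted p 0.0654 to 0.0867), while Gbp9 kept it throughout. Its 0 h and 24 h sets do not overlap (2.9% of all tested genes were higher without overlap). The 1.80-fold rise of Gbp9 in untreated cells compares with 6.21-fold for LPS over Control at 24 h. These changes are the background against which each treatment was read, since every treated group was set against the Control of its own time.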

How the data were processed

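Total RNA of BMDM was made into stranded, ribodepleted libraries. Per the submitters' processing notes, reads passed fastp 0.19.11 and STAR 2.7.3a with mm10, and the authors deposited unnormalised counts per gene. The annotation release and whether strand was used in counting are not given in the sources used here. Columns name a group and no replicate, so library numbers follow column order and only name a library.

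Counts of 42 libraries were fitted in R 4.3.3 with edgeR 4.0.16 (filterByExpr, TMM, 1 mean per group, quasi-likelihood F test, Benjamini-Hochberg adjustment over 11624 genes) for 23 comparisons. Alternatives were DESeq2 1.42.0, RLE size factors, no filter beyond 1 count, a model restricted to the libraries of each comparison, and leaving out each library. The script was tested on simulated data. The members and lists were chosen with earlier results of these data known. Named genes were the members, Irf5, Lyz2, Ifnb1, Ifng, Irf1, up to 5 called genes of each list with the smallest adjusted p at LPS 24 h (WT), and the 5 genes most like the mean profile. A further gene named by these rules is not reported here.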

Additional observations from a re-analysis of the deposited data

Results flagged for a closer look

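The response to LPS differed between 2 h and 24 h, by a test of the difference itself, in 8 of the 9 genes with either label. On the log2 scale the 24 h response exceeded the 2 h response in WT-labelled libraries by 3.15 for Iigp1, 2.42 for Gbp2, 2.29 for Gbp9, 1.64 for Gbp7, 1.57 for Irgm1, 1.54 for Igtp, 1.25 for Gbp3 and 1.17 for Irgm2. In KO-labelled libraries the excess was 2.61 for Iigp1, 2.34 for Gbp2, 2.16 for Gbp9, 1.56 for Igtp, 1.42 for Irgm1, 1.38 for Gbp7, 1.10 for Gbp3 and 0.87 for Irgm2. Among these 8 genes Iigp1 and Gbp2 had the greatest values and Irgm2 the smallest with both labels. Differences between the genes were not tested. Groups of 3 libraries are too small for a test of single libraries that stand apart.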

How the results depend on the processing

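The LPS calls at both times were made under every alternative run. Counts of called genes that moved by over 1.5 times were these. For palmitate at 24 h in KO-labelled libraries, 0 called lower became 2 (Gbp3 and Iigp1) with all genes with at least 1 count and 1 with DESeq2. For Control at 0 h between labels, 0 called lower became 1 with either of these settings and 0 to 1 without a library. For LPS 2 h between labels, 1 called higher became 0 in a fit of only the libraries compared and 0 to 2 without a library. For Control at 2 h against 0 h, 2 called higher became 1 in that fit, and without a library the counts were 1 to 2 higher and 1 to 4 lower. For Control at 24 h against 0 h it was 1 to 2 higher without a library. The cause was not tested. Of single log2 fold changes examined, none changed sign, 34 of 906 values lost their call and 10 gained one. Tgtp2 gained a called excess of the 24 h response in WT-labelled libraries without Control 2 h library 1 (2.02) or Control 24 h library 2 (2.46), and Iigp1 lost it in KO-labelled libraries without Control 2 h library 1 (2.04). With 3 counts equal to up to 0.841 CPM in the libraries without LPS, depth limits Iigp1 and Tgtp2 without LPS. No paired analysis was possible because the columns carry no replicate number.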
